A study of Mus musculus with 3 samples.

Results

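Immunoglobulin constant region transcripts and the joining chain were followed in single-cell libraries of sorted lymph node (LN) stromal cells, which do not rearrange immunoglobulin genes. The genes were the rows of the count tables named Igha, Ighm, Ighg1, Ighg2b, Ighg2c, Igkc, Iglc1, Iglc2 and Jchain, which made 9 of 51912 genes and 9 of 396 rows of immunoglobulin loci and Jchain. They are called the immunoglobulin genes here. They were chosen by their measured levels in these data, since earlier results had shown an unnamed cluster of shallow barcodes led by immunoglobulin transcripts. Their levels by depth and by cluster are therefore described without a test.

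An antibody is built from heavy and light chains. Naive B cells carry IgM and IgD from the same rearranged heavy chain gene, activated B cells can switch to IgG or IgA, and each B cell as a rule makes a single light chain, kappa or lambda. Plasma cells, the secreting form, fill much of their RNA with these transcripts and make the joining chain, which links the units of secreted IgM and IgA. LN stroma is known instead for chemokines such as CXCL13, which draws B cells into follicles, and follicular dendritic cells (FDCs) bind antibody and complement on their surface.

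The cells came from C57BL/6 mice of the CXCL13-TdTomato line, in which Cre under Cxcl13 control marks cells with TdTomato, and were sorted as live, Podoplanin+, CD31-, CD45- and TdTomato+. All mice received antigen immune complexes (IC). In the 2-IC group (2 libraries) they were given 7 days and 24 h before analysis, and in the 1-IC group (1 library) 24 h before; LNs of several mice were pooled and no library came from unimmunized mice. The labels of the 2-IC libraries share this schedule but also carry short names of which one gives 24h and the other 7d, and nothing in the sources used here says what these mean, so the libraries may not be replicates of 1 schedule. With 1 library in the 1-IC group, the number of ICs and the library cannot be told apart and no test between the groups was possible. Nothing in the sources used here says which mice went into which library, so p-values measure only the spread between these libraries, which may be technical.

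The libraries held 3790, 1029 and 667 barcodes with 20607903, 12788101 and 3766526 UMIs (unique molecular identifiers, which mark single captured transcripts). The order is replicate 1 and replicate 2 of the 2-IC group and then the 1-IC library, here and below. Retained barcodes had at least 200 genes, at most 10% mitochondrial UMIs and no UMI of 13 genes of other cell types, Cd79a, Cd79b and Ptprc among them, and numbered 1526, 391 and 326 (2243 of 5486). Their median depth was 4701, 14732 and 5979 UMIs. Cd79a barcodes passed the same gene and mitochondrial limits and had at least 1 UMI of Cd79a, which encodes a signalling chain of the B cell receptor. They numbered 1055, 190 and 214, although the sort had removed CD45+ cells. Barcodes in which the 9 genes made up at least 10% of UMIs are called high-load barcodes.

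The 2-IC libraries shared 76 barcode sequences, 7.39% of the barcodes of replicate 2. In 75 of these the shallower copy held under 5% of the UMIs of the deeper copy, with medians of 673 and 36187 UMIs. The shallow copy was in replicate 1 for 64 of the 76, and 40 shallow copies in replicate 1 and 3 in replicate 2 were among the retained barcodes. The 1-IC library shared 2 barcodes with replicate 1 and 0 with replicate 2. Results that rest on shared or high-load barcodes are therefore given with and without them, or as medians over barcodes.

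The genes lie in 4 regions of GRCm38. The heavy chain constant genes share chromosome 12 on the minus strand, where Ighm spans chr12:113418558-113422730, Ighg1 chr12:113325240-113330523, Ighg2b chr12:113302965-113307933, Ighg2c chr12:113285325-113288932 and Igha chr12:113254830-113260236. Igkc, the kappa constant gene, is at chr6:70726435-70726966 on the plus strand and Jchain at chr5:88519809-88527891 on the minus strand. The lambda constant genes Iglc1 and Iglc2 lie at chr16:19061618-19062071 and chr16:19198396-19200351 on the minus strand. Iglc2 has a near copy, Iglc3, with 95.9% of aligned coding bases alike, against 73.3% for Iglc1 and Iglc2. Counts could therefore be split between Iglc2 and Iglc3, and the levels of both are uncertain. Ighg2b and Ighg2c were alike at 85.6% of coding bases. The last 120 coding bases of the lambda genes differ more between Iglc1 and Iglc2 than between Iglc3 and Iglc2. How reads were divided between these genes was not tested. The bases are printed from the GENCODE vM21 annotation of GRCm38 on the coding strand. Capitals mark bases that differ from Iglc2 (38 in Iglc1 and 2 in Iglc3).
Iglc1 (chr16:19061755-19061874): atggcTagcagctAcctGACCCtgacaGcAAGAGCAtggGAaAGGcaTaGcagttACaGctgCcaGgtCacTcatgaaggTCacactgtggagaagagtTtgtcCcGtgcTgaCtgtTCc
Iglc2 (chr16:19198539-19198658): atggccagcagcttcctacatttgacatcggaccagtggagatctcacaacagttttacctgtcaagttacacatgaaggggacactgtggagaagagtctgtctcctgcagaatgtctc
Iglc3 (chr16:19065368-19065487): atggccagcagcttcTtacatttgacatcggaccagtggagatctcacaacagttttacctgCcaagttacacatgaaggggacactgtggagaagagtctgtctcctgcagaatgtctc

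Immunoglobulin transcripts were a small part of the RNA of retained barcodes. Not all of these are shown to be stromal, as 56 fell in a myeloid-like and 293 in an unnamed shallow cluster, both described below. The unnamed cluster held 4926 of the 13149 immunoglobulin UMIs. The 9 genes gave 0.115%, 0.0595% and 0.0090% of UMIs, with exact binomial 95% intervals of 0.113 to 0.117%, 0.0575 to 0.0615% and 0.00774 to 0.0104%, which cover counting error only. Without high-load barcodes the shares were 0.0601%, 0.0392% and 0.0090%, and without shared barcodes 0.0925%, 0.0404% and 0.00901%. The 1-IC library was the lowest in each of these cases. Replicate 1 was the highest in each of them. The order of the 2-IC libraries turned when each barcode was thinned to 1000 UMIs (0.183% and 0.260%) and with no filter on contaminant genes (1.08% and 1.38%). Both of these include high-load barcodes. Thinned without high-load barcodes, the shares were 0.0771% and 0.0566%, so the order did not turn. With no filter, high-load barcodes held 142893 of 213910 and 143812 of 164056 immunoglobulin UMIs of the 2-IC libraries. Barcodes with a UMI of the T cell genes Cd3d or Trac and none of Cd79a or Cd79b were taken as a class that should lack immunoglobulin. They had 0.0916%, 0.0482% and 0.0245% (150, 62 and 34 barcodes), while Cd79a barcodes had 2.57%, 5.17% and 0.982%. Without high-load barcodes the Cd79a shares were 0.833%, 0.601% and 0.982%, so the 1-IC library was then the highest of them. The T cell class had no limit on load. Its share was below the retained share of all barcodes in both 2-IC libraries and above it in the 1-IC library. Against the retained share without high-load barcodes it was higher in each library. A single barcode held 212 of the 789 immunoglobulin UMIs of the T cell class of replicate 1. The Cd79a share was above the T cell and retained shares in each library, with or without high-load barcodes.

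The load was spread thinly over most retained barcodes of the 2-IC libraries. The median barcode held 2, 4 and 0 UMIs of the 9 genes, and 13.4%, 4.35% and 74.2% of barcodes held none. The remainder was uneven: 8 retained high-load barcodes of replicate 1 carried 47.9% of its 9595 immunoglobulin UMIs and 2 of replicate 2 carried 34.1% of 3372. In the 1-IC library no retained barcode reached the 10% load, the highest held 16 UMIs and the 326 barcodes held 182 in all.

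Each barcode was thinned to 1000 UMIs to compare how often an immunoglobulin UMI was seen, and 90, 19 and 20 shallower retained barcodes were left out. An immunoglobulin UMI was present in 42%, 31.7% and 8.17% of retained barcodes, in 40.5%, 39.3% and 17.6% of the T cell class (median depth before thinning 4128, 10455 and 4572 UMIs) and in 89.8%, 83.3% and 95.3% of Cd79a barcodes. Before thinning it was present in all but the barcodes without a UMI given above. The intervals of the retained share and of the T cell class overlapped in each library (39.4 to 44.6% and 32.6 to 48.9% in replicate 1). With 148, 61 and 34 barcodes of the T cell class used, an overlap cannot show that the shares are equal. Expression in stromal cells was not tested, and the retained share is not read as expression. The T cell class itself held more Ighm than the retained barcodes, at 183, 162 and 197 CPM against 79.0, 18.7 and 30.2 CPM. It also held RNA of 8 stromal matrix genes, at 10138, 9972 and 1957 CPM against 16490, 17853 and 11791 CPM in retained barcodes. The class is therefore no clean blank.

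Kappa transcripts led in every library. Igkc stood at 396, 182 and 43.5 CPM (UMIs of the gene per 1000000 UMIs) in retained barcodes under 10% load, with a UMI in 74.6%, 79.4% and 15.3% of them. Ighm, the IgM heavy chain, stood at 79.1, 16.1 and 30.2 CPM. Ighg1, the main IgG heavy chain after many immunizations, stood at 33.9 and 107 CPM in the 2-IC libraries and had 0 UMIs in the 1-IC library, which allows up to 1.48 CPM there. The order of Ighm and Ighg1 was therefore opposite in the 2-IC libraries. Ighg2c stood at 31.1, 1.24 and 1.48 CPM and Ighg2b at 4.57, 15.2 and 0.989 CPM, again with a different gene ahead in each 2-IC library.

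The remaining genes were lower. Iglc1 stood at 15.1, 47.8 and 2.97 CPM and Iglc2 at 17.3, 5.82 and 4.95 CPM. Iglc3, the near copy of Iglc2 and no member of the set, stood at 10.2, 3.53 and 1.98 CPM. Jchain stood at 22.8, 17.5 and 5.93 CPM, and the IgD gene Ighd, which was no member of the set, at 4.69, 1.76 and 1.48 CPM. Igha, the IgA heavy chain, had 504 UMIs in retained barcodes of replicate 1 and 0 in the other libraries. Of the 504, 323 and 173 lay in 2 barcodes and 7 in barcodes under 10% load, so its level was that of a few barcodes.

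**Figure D1:**
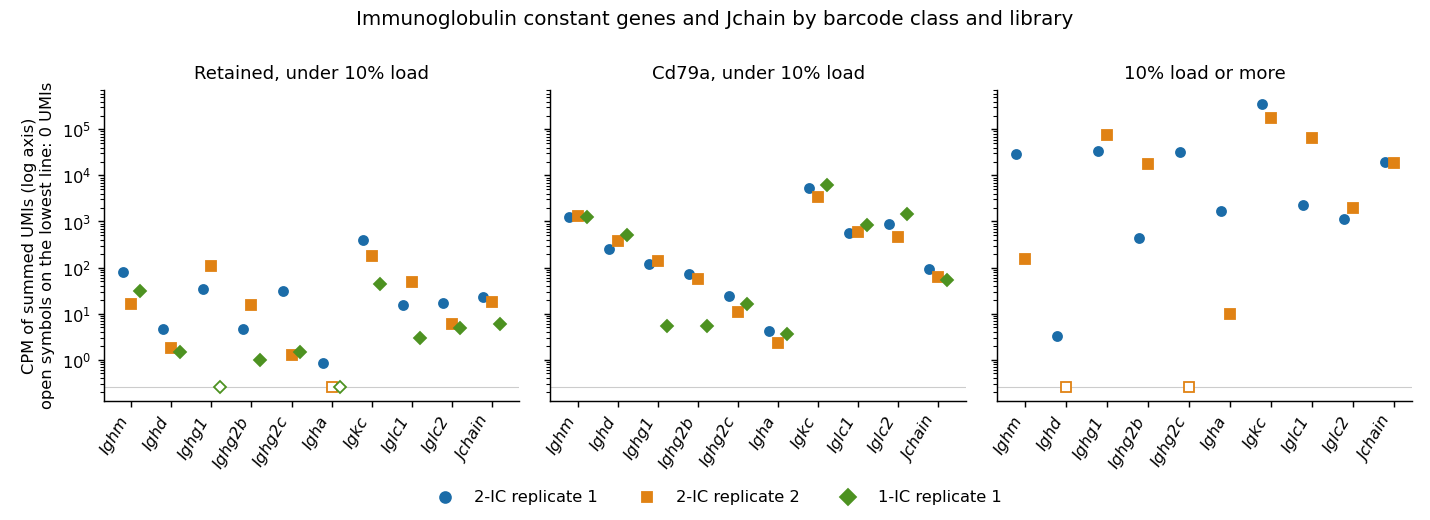
Level of each of the 9 immunoglobulin genes and Ighd (CPM of summed UMIs, log axis) in retained barcodes and Cd79a barcodes under 10% load and in high-load barcodes, 1 symbol per library, with open symbols on the lowest line for 0 UMIs. Ighm stood at 16.1 to 79.1 CPM in retained and at 1279 to 1299 CPM in Cd79a barcodes, while Ighg1 ranged from 0 UMIs to 107 CPM in retained barcodes.

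The make-up of the heavy chain UMIs differed between the libraries. In retained barcodes under 10% load, Ighm made up 51.1% of 1288 heavy chain UMIs in replicate 1, 11.3% of 807 in replicate 2 and 87.1% of 70 in the 1-IC library. Ighg1 made up 21.9%, 75% and 0%, and Ighg2c 20.1%, 0.867% and 4.29%. The exact binomial intervals for Ighm did not overlap between any 2 libraries. Igkc made up 90.3%, 76.1% and 81.5% of light chain UMIs.

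The difference between the libraries was seen within the stromal clusters, which are described below. Among FDC-like barcodes Ighg1 was 16.5% of 97 heavy chain UMIs in replicate 1, 74.1% of 58 in replicate 2 and 0 of 6 in the 1-IC library. Among T-B border reticular cell-like (TBRC-like) barcodes it was 32.6% of 193, 68.0% of 25 and 0 of 8. Among medullary reticular cell-like (MedRC-like) barcodes it was 12.2% of 188, 11 of 22 and 0 of 12. Replicate 2 was the highest and the 1-IC library had no Ighg1 UMI in each of these types.

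Cd79a barcodes under 10% load were alike across the libraries in Ighm and differed from the retained barcodes of their own library. Ighm made up 71.7% of 13398, 68.8% of 5003 and 70.6% of 1993 heavy chain UMIs, and Ighd 14.3%, 19.7% and 27.4%. Ighg1 made up 6.67%, 7.52% and 0.301%, below its share in retained barcodes of both 2-IC libraries. High-load barcodes had little IgD: in replicate 1 Ighg1 made up 35.3%, Ighg2c 32.4% and Ighm 30.1% of 29529 heavy chain UMIs, and in replicate 2 Ighg1 made up 80.5% and Ighg2b 19.2% of 37186.

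Jchain followed the same split. Per 100 heavy chain UMIs it had 14.8, 12.3 and 17.1 UMIs in retained barcodes under 10% load, 5.16, 3.22 and 2.96 in Cd79a barcodes under 10% load, and 20.1 and 20.2 in high-load barcodes of the 2-IC libraries. The retained values lay between those of the other classes in both 2-IC libraries. Igkc made up 73.1%, 70.2% and 66.0% of light chain UMIs in Cd79a barcodes under 10% load and 98.8% and 72.7% in high-load barcodes.

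**Figure D2:**
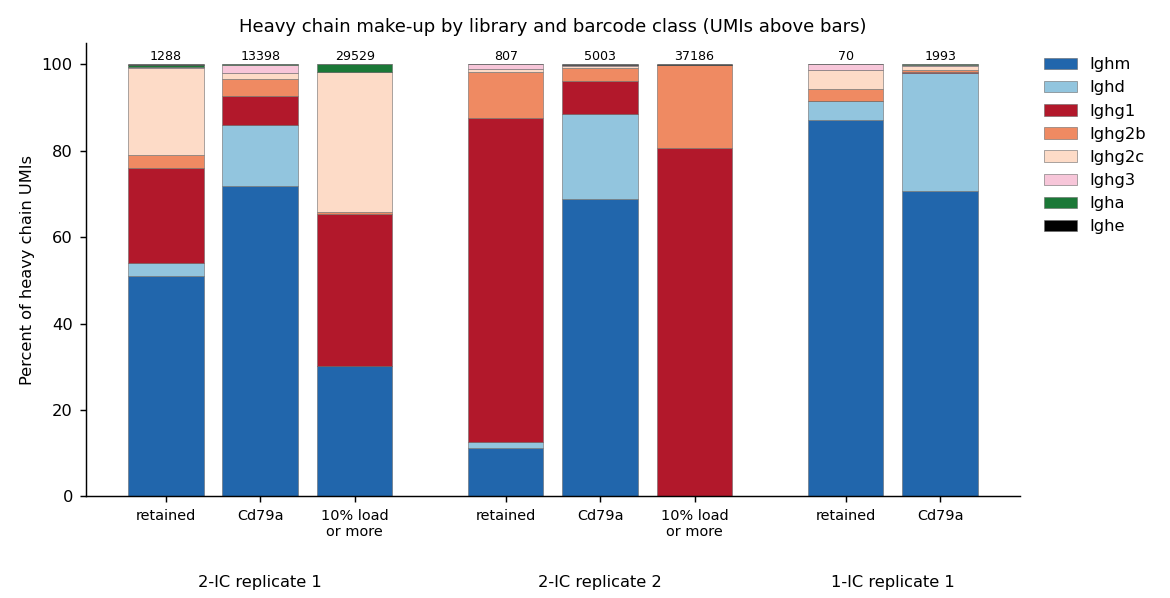
Percent of heavy chain UMIs from each constant gene, stacked to 100% for each library and barcode class, with the number of heavy chain UMIs above each bar. Ighm was 51.1%, 11.3% and 87.1% of the retained bars and 68.8 to 71.7% of the Cd79a bars, while Ighg1 was 75% of the retained bar and 80.5% of the high-load bar of 2-IC replicate 2.

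In each high-load barcode that passed the limits, 1 heavy and 1 light chain constant gene made up nearly all of the respective UMIs. There were 24, 13 and 2 high-load barcodes, of which 23, 13 and 0 passed the gene and mitochondrial limits and 8, 2 and 0 were retained. In those that passed, 1 heavy chain gene gave at least 98.3% of heavy chain UMIs in replicate 1 and 99.4% in replicate 2, and 1 light chain gene at least 93.9% and 95.3% of light chain UMIs. By contrast the leading heavy chain gene gave a median of 82.8%, 68.2% and 77.7% in Cd79a barcodes under 10% load with at least 20 heavy chain UMIs (179, 104 and 12 barcodes), in which IgM and IgD of 1 cell count as 2 genes. The depth of the high-load barcodes that passed ran from 608 to 69291 UMIs in replicate 1 and from 527 to 69740 UMIs in replicate 2.

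The deepest load was an Ighg1 and Igkc barcode of replicate 1, with 52608 immunoglobulin UMIs among 69291. Its Ighg1 count was 9523, its Jchain count 874 and its Cd79a count 19. Replicate 2 held the same barcode sequence with 1383 UMIs, of which 1050 were immunoglobulin, again of Ighg1 and Igkc. This shallow copy was among the retained barcodes. In all, 11 high-load barcodes of each 2-IC library were shared with the other, and all of these had the same leading heavy and light chain gene there. Of the 10 retained high-load barcodes, 5 in replicate 1 and 2 in replicate 2 were shared, each the shallow copy.

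The 3 retained high-load barcodes that were not shared lay in replicate 1. An Ighg1 barcode had 885 immunoglobulin UMIs among 1567 and 0 UMIs of Cxcl13. The other two were Igha barcodes with 1157 of 9976 and 715 of 4090 UMIs from the 9 genes, and with 102 and 54 UMIs of Cxcl13, the gene that drives the sort marker. Both had Ighv3-6 as the leading heavy chain variable gene, with 3 and 6 UMIs. Doublets were not called, and the part of doublets in these barcodes was not tested.

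Within replicate 1, 4 pairs among the 12 deepest high-load barcodes shared the heavy chain gene and the leading heavy and kappa variable genes. One pair was Ighm with Ighv1-71 and Igkv17-121, and the others were Ighg2c with Ighv10-1 and Igkv10-94, with Ighv3-8 and Igkv6-17, and with Ighv3-6 and Igkv4-68. In the Ighm pair Ighv1-71 rested on 3 UMIs in one barcode and 1 UMI in the other. The correlation of all other genes was r = 0.654 to 0.864 within these pairs (median 0.802) and 0.469 to 0.851 in the other 62 pairs of these barcodes (median 0.697). These are correlations across genes within barcodes that share a library and differ in depth, and genes are not independent replicates.

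Variable region transcripts were scarce in retained barcodes, where 348 variable genes gave 95, 32 and 1 UMIs. The lambda variable gene Iglv1 led with 41, 12 and 1 of them. In replicate 1 Ighv3-6 with 9 and Ighv1-18 with 7 UMIs came next, and in replicate 2 Igkv12-44 with 4 and Igkv16-104 with 2. The Ighv3-6 and Ighv1-18 counts of replicate 1 rested on retained high-load barcodes. The 2 Igha barcodes held 3 and 6 UMIs of Ighv3-6, and 2 shared Ighg1 barcodes held 5 and 2 UMIs of Ighv1-18. Iglv1 had 1, 5, 0, 9, 2, 10, 2 and 1 UMIs in the 8 retained high-load barcodes of replicate 1. Iglv1 UMIs also outnumbered those of the leading kappa variable gene in 15 of 22 kappa high-load barcodes of replicate 1 and 4 of 9 of replicate 2, so Iglv1 UMIs were also common in barcodes whose constant gene was kappa.

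The immunoglobulin share was highest in the shallowest barcodes of each library. Retained barcodes of each library were put into 3 equal classes by their UMIs outside immunoglobulin loci, with a depth ratio of 4.49, 4.48 and 4.86 between the deepest and the shallowest. The share of UMIs from the 9 genes was 6.84, 7.09 and 2.16 times as high in the shallowest class as in the deepest. Without high-load barcodes these ratios were 3.20, 2.36 and 2.16, and without shared barcodes 4.14, 2.45 and 2.14. The mean number of immunoglobulin UMIs per barcode under 10% load was 2.89, 2.99 and 4.01 from the shallowest to the deepest class of replicate 1, 4.49, 4.29 and 8.36 in replicate 2 and 0.321, 0.633 and 0.722 in the 1-IC library. From the shallowest to the deepest class it thus rose in each library, but by less than the depth did. In replicate 2 it did not rise from the shallowest to the middle class. The share under 10% load fell from class to class in replicate 1 (0.135%, 0.0620% and 0.0422%) and in the 1-IC library (0.0148%, 0.0106% and 0.00687%), but not from the middle to the deepest class of replicate 2 (0.0832%, 0.0292% and 0.0353%).

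Of all genes with at least 20 UMIs in the retained barcodes of every library, 43 of 8341 (0.516%) had a share at least 2-fold higher in the shallowest class in all 3 libraries. Ighm and Igkc were the members with enough UMIs, and both were among the 43. Ighm stood at 164, 69.3 and 42.4 CPM in the shallowest class and at 55.0, 10.4 and 17.6 CPM in the deepest, which is 1.58, 2.74 and 1.27 on the log2 scale. Igkc stood at 2632, 1724 and 89 CPM against 434, 170 and 33.5 CPM, or 2.60, 3.34 and 1.41. This contrast chose the genes, and nothing is read from the count. Lyz2, Tyrobp and H2-Aa, genes of myeloid and antigen-presenting cells, were also among the 43, as were the receptor genes Fcer2a and Fcgr2b. Other genes of the same gene lists with enough UMIs were not, among them Aif1, Ctss, Cd74, H2-Ab1, Fcgrt and Cr2. The myeloid gene Aif1 stood at -0.35, 0.31 and -0.26 on the log2 scale. With the other contaminant genes allowed, 119 of 9157 genes (1.30%) were counted and 0 of the 3 members with enough UMIs.

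**Figure D3:**
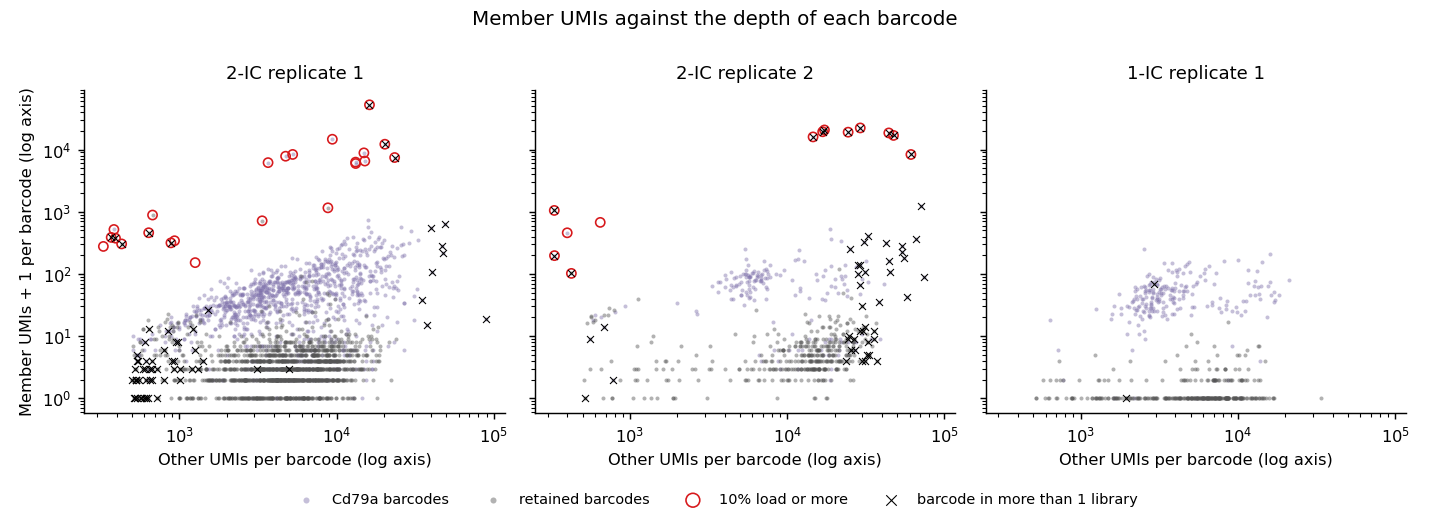
Immunoglobulin UMIs plus 1 against the other UMIs of each barcode (log axes) for each library, with retained barcodes in grey, Cd79a barcodes in purple, high-load barcodes ringed and crosses on barcodes found in more than 1 library. The grey barcodes have medians of 2, 2 and 3 UMIs from the shallowest to the deepest class of replicate 1, 2, 3 and 6 in replicate 2 and 0 throughout in the 1-IC library, and the 8 and 2 ringed grey barcodes of the 2-IC libraries hold 47.9% and 34.1% of their retained immunoglobulin UMIs.

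Retained barcodes were clustered with all immunoglobulin genes left out of the variable genes, which gave 10 clusters. Named from fixed markers, they were FDC-like (242 barcodes, leading gene Cr2, the complement receptor of FDCs), TBRC-like (245, with Fmod and Ccl21a), MedRC-like (256, with Cyp2f2 and Stc1), interfollicular reticular cell-like (IFRC-like; 449, with Tnfsf11 and Ch25h), myeloid-like (56, with Lyz2 and Tyrobp) and interferon-like (31). Clusters 1, 2, 6 and 7 stayed unnamed. Of these, cluster 7 (95 barcodes) came from replicate 2 alone and 160 of the 187 barcodes of cluster 6 did too.

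FDC-like, TBRC-like, MedRC-like and IFRC-like barcodes held immunoglobulin at levels that differed less between these types than between the 2-IC libraries and the 1-IC library. This does not extend to the interferon-like cluster, which had 14, 2 and 15 barcodes. It stood at 474 CPM in replicate 1 and at 21.4 CPM in the 1-IC library, where it was the lowest type. Under 10% load the 9 genes summed to 491, 411 and 52.1 CPM in FDC-like, 501, 523 and 58.0 CPM in TBRC-like, 534, 421 and 139 CPM in MedRC-like and 428, 287 and 52.1 CPM in IFRC-like barcodes. The means ± SD over 3 libraries were 365 ± 204 for MedRC-like, 361 ± 262 for TBRC-like, 318 ± 234 for FDC-like and 256 ± 190 for IFRC-like. No neighbours in this order differed by more than 1 SD, but the SD holds the gap between libraries, and in each type the 1-IC library was the lowest. Within each of the 3 libraries MedRC-like and TBRC-like barcodes stood above FDC-like and IFRC-like barcodes. These differences between types were not tested, and in replicate 2 they rest on 10 MedRC-like and 9 TBRC-like barcodes. The order did not hold when clusters were drawn anew without shared barcodes and with high-load barcodes kept. MedRC-like barcodes of replicate 2 then stood at 308 CPM, below FDC-like barcodes at 444 CPM. In the 1-IC library TBRC-like barcodes then stood at 45.8 CPM, below FDC-like (51.9 CPM) and IFRC-like barcodes (48.6 CPM). The unnamed cluster 1, led by Apod, stood at 377 ± 245 CPM. With the 2 Igha high-load barcodes, which lay in the IFRC-like cluster, that type reached 533 ± 640 CPM.

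Cluster 2 and the myeloid-like cluster were the shallowest, with medians of 1351 and 1316 UMIs, and stood higher than the named stromal types in both 2-IC libraries. In the 1-IC library only the myeloid-like cluster did. Cluster 2 (293 barcodes) was led by Ighg1, Igkc, Gm42418, Ighm and H2-Aa, held 8 of the 10 retained high-load barcodes and 37 shared ones, and summed to 10119, 14448 and 137 CPM. Without high-load barcodes it stood at 2278, 2783 and 137 CPM, and without shared and high-load barcodes at 1730 ± 1406 CPM. The myeloid-like cluster stood at 1486, 2530 and 445 CPM, from 34, 6 and 16 barcodes. The median barcode of cluster 2 held 2, 2 and 0 immunoglobulin UMIs, against 2, 4 and 0 in the FDC-like, 2, 3.5 and 0 in the MedRC-like and IFRC-like and 3, 3 and 0 in the TBRC-like cluster.

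The genes outside immunoglobulin loci whose level over the 26 sums of cluster and library was most like the summed immunoglobulin level were mt-Rnr2 (r = 0.724), mt-Rnr1 (0.718), Rps10-ps2 (0.629), mt-Nd3 (0.571) and Tpt1 (0.571), among 8339 genes compared on log2(CPM + 1). The first 2 encode mitochondrial ribosomal RNA. The sums share libraries and differ in depth.

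**Figure D4:**
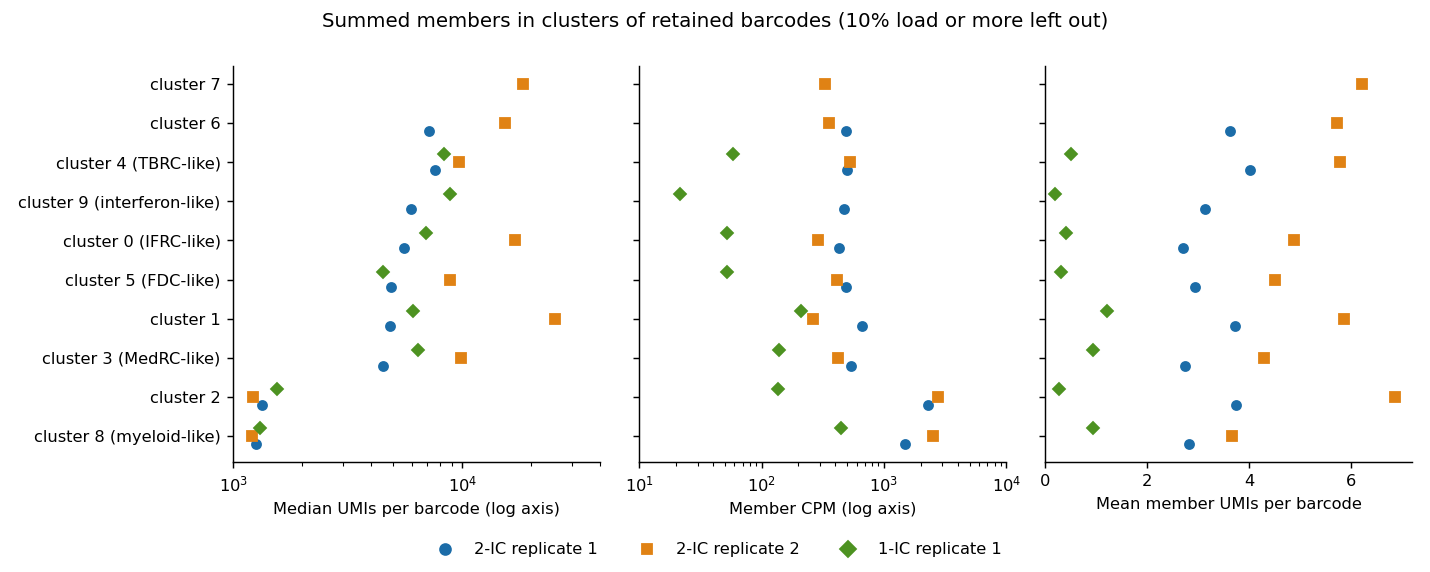
Median depth (UMIs, log axis), summed immunoglobulin level (CPM, log axis) and mean immunoglobulin UMIs per barcode in each cluster of retained barcodes without high-load barcodes, 1 symbol per library, with clusters ordered by depth. The shallowest clusters, the myeloid-like cluster and cluster 2, have the highest CPM in the 2-IC libraries (up to 2530 and 2783), while the 1-IC library is at 137 CPM in cluster 2. The 2530 CPM of the myeloid-like cluster rests on 6 barcodes of replicate 2.

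Cd79a barcodes were then compared with retained barcodes, with UMIs summed over each class in each library and the library as a block in edgeR's quasi-likelihood test over 12638 genes. In such sums, fewer cells of a type and less RNA per cell cannot be told apart. Of all genes, 3178 (25.1%) were higher and 3057 (24.2%) lower at a Benjamini-Hochberg adjusted p under 0.05, so a call alone says little. In both directions together 49.3% were called. With scaling by library size only, which moved the median log2 fold change of all genes from 0.01 to -0.17, 2309 were higher and 3940 lower, and the same 8 immunoglobulin genes were higher. Of the 9 immunoglobulin genes 8 were higher and Igha lower, with a median log2 fold change of 5.26 against 0.01 over all genes. Ighm, Ighd and the light chain genes belong to B cells, as Cd79a does, so their rise was bound to follow the gate. Their direction and calls describe the classes and are not read as a result.

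The chains of naive B cells kept their differences when high-load and shared barcodes were left out. Ighm rose from 79.0, 18.7 and 30.2 CPM in retained to 2377, 1142 and 1279 CPM in Cd79a barcodes, 5.57 ± 0.19 (SE) on the log2 scale (edgeR adjusted p = 9.60e-12), and by 5.28 without those barcodes. Ighd rose by 6.81 ± 0.27 (edgeR adjusted p = 3.19e-11), from 4.68, 1.76 and 1.48 to 246, 322 and 496 CPM, and by 6.91 without them. The lowest Cd79a library lay above the highest retained library for both genes.

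Light chains rose as well. Igkc stood at 712, 350 and 43.5 CPM in retained and 18357, 26254 and 6160 CPM in Cd79a barcodes (6.13 ± 0.36, edgeR adjusted p = 2.07e-09). Iglc1 went from 71.7, 48.2 and 2.97 to 576, 9071 and 843 CPM (5.97 ± 0.70, edgeR adjusted p = 6.08e-06), and Iglc2 from 18.6, 5.82 and 4.95 to 883, 564 and 1450 CPM (6.58 ± 0.30, edgeR adjusted p = 1.36e-10). Groups did not overlap for any of the light chain genes. Without shared and high-load barcodes the log2 fold changes were 5.03, 4.77 and 6.56 in this order, and the test then called 2894 of 12242 genes higher (23.6%).

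Switched heavy chains and Jchain depended on high-load barcodes. Ighg1 stood at 1354, 9869 and 5.45 CPM in Cd79a and at 106, 135 and 0 CPM in retained barcodes, 5.11 ± 0.42 on the log2 scale (edgeR adjusted p = 1.28e-07), and this became 1.36 (edgeR adjusted p = 0.000326) without shared and high-load barcodes. Under 10% load Ighg1 was 3.51-fold and 1.33-fold higher in Cd79a barcodes of the 2-IC libraries. Jchain went from 55.3, 20.5 and 5.93 to 812, 2488 and 53.6 CPM (5.25 ± 0.48, edgeR adjusted p = 4.75e-07) and to 2.22 without those barcodes. Both kept their call, at a smaller difference.

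Ighg2c lost its call. It stood at 31.1, 1.23 and 1.48 CPM in retained and at 1252, 9.17 and 16.4 CPM in Cd79a barcodes (5.26 ± 0.32, edgeR adjusted p = 3.62e-09), but at 0.28 ± 0.37 (edgeR adjusted p = 0.565) without shared and high-load barcodes. Under 10% load it was lower in Cd79a than in retained barcodes of replicate 1 (23.7 against 31.1 CPM) and higher in replicate 2 (10.6 against 1.24 CPM). Ighg2b rose by 4.81 ± 0.79 (edgeR adjusted p = 0.000146), from 16.8, 15.2 and 0.989 to 72.8, 2296 and 5.45 CPM, and by 3.23 without those barcodes. The size of the differences depended on the 2-IC libraries. Without replicate 1 and without replicate 2 the log2 fold change was 7.21 and 2.33 for Ighg2b, 7.81 and 4.38 for Iglc1, 6.31 and 3.89 for Ighg1, 6.39 and 3.99 for Jchain and 3.23 and 5.46 for Ighg2c. It was 6.80 and 5.94 for Igkc, 7.36 and 6.45 for Iglc2 and 5.86 and 5.32 for Ighm.

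Igha turned over. It was lower in Cd79a barcodes by the test (-2.51 ± 0.75, edgeR adjusted p = 0.0123), at 4.62, 3.27 and 3.64 CPM against 60.4, 0 and 0 CPM. Without shared and high-load barcodes its log2 fold change was 3.18. Retained barcodes under 10% load held only 7, 0 and 0 Igha UMIs. The gene thus passed the count filter there through the Cd79a barcodes, and no call is read from it. Its retained level in replicate 1 was that of the 2 Igha barcodes given above. Under 10% load Igha stood at 4.13, 2.26 and 3.64 CPM in Cd79a barcodes and at 0.841, 0 and 0 CPM in retained barcodes. In replicate 1 this was 4.91-fold higher. Cd79a barcodes of any load held only 36, 10 and 4 Igha UMIs, so no fold is given for the other libraries.

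**Figure D5:**
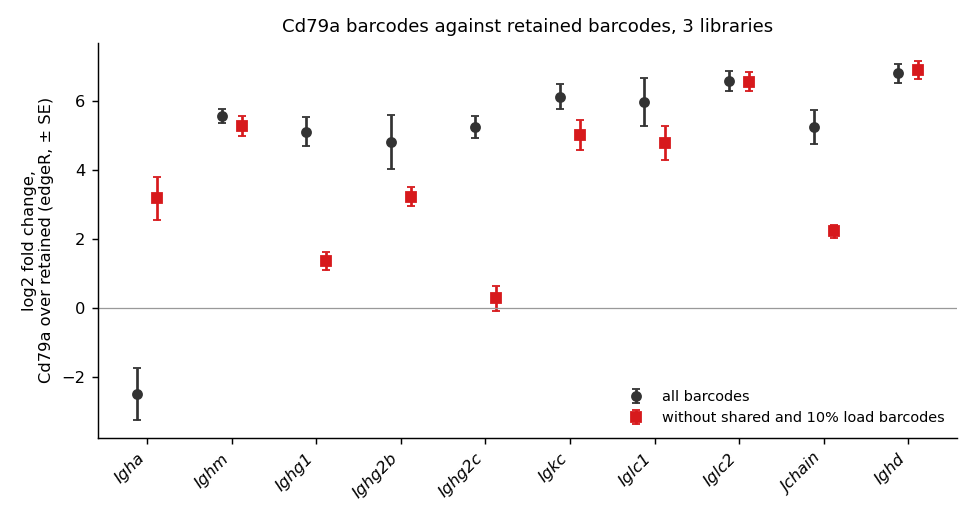
Log2 fold change of Cd79a over retained barcodes (edgeR, ± SE, 3 libraries) for the 9 immunoglobulin genes and Ighd, with all barcodes (circles) and without shared and high-load barcodes (squares). Ighm stayed at 5.57 and 5.28, while Ighg2c went from 5.26 to 0.28 and Igha from -2.51 to 3.18.

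The immunoglobulin share of the median barcode rose with its Cd79a count in each library. With 1 Cd79a UMI, with 2 to 4 and with 5 or more it was 0.0835%, 0.717% and 1.18% in replicate 1, 0.0411%, 0.211% and 1.14% in replicate 2 and 0.0129%, 0.993% and 1.21% in the 1-IC library. These classes held 231, 138 and 686 barcodes in replicate 1, 40, 5 and 145 in replicate 2 and 12, 8 and 194 in the 1-IC library. The middle class of replicate 2 thus rests on 5 barcodes. The pooled shares, which include high-load barcodes, were 1.27%, 2.98% and 2.83% in replicate 1, 0.175%, 0.206% and 6.52% in replicate 2 and 0.0553%, 0.541% and 1.05% in the 1-IC library. In replicate 1 a single barcode held 7832 of the 17534 immunoglobulin UMIs of the class with 1 Cd79a UMI and another 8868 of the 24678 of the class with 2 to 4. Many Cd79a barcodes also held stromal RNA. Under 10% load, 692 of 1043, 109 of 180 and 43 of 214 had at least 3 UMIs of 8 stromal matrix genes, and the immunoglobulin share was 0.665%, 0.450% and 0.390% in these against 1.48%, 1.34% and 1.45% in the rest. The barcodes with matrix UMIs were also deeper, with medians of 6592, 18286 and 11191 UMIs against 3313, 5795 and 3124, so matrix RNA and depth cannot be told apart here, and the part of doublets was not tested.

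B cell genes were bound to follow the gate on Cd79a and Cd79b, so they describe the classes and are not read as a result. In Cd79a barcodes 18 of 18 tested were higher, Cd79a and Cd79b among them, against 25.1% of all genes. Their summed level under 10% load was 20221, 13656 and 31456 CPM in Cd79a and 1117, 477 and 1311 CPM in retained barcodes, where 2, 3 and 7 of the 18 genes were at 0. Ms4a1, which encodes CD20, rose by 7.89 ± 0.22 on the log2 scale. All 8 matrix genes tested fell, from Dcn with -1.20 to Col6a2 with -0.75. Of tested genes of other cell types, 4 of 4 T cell genes rose, 4 of 6 myeloid genes rose and 1 fell, and 1 of 1 erythrocyte and 1 of 1 endothelial genes rose; genes of several of these lists had been used to leave barcodes out of the retained class. The part of these cell types in the immunoglobulin differences was not tested.

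Plasma cell genes had their highest summed level in high-load barcodes. Of 14 tested, 7 rose and 0 fell in Cd79a barcodes, against 25.1% and 24.2% of all genes. Without high-load barcodes 5 rose and 4 fell, against 24.4% and 25.4% of all genes. Nothing is read from these counts. Their summed level was 12098 and 11138 CPM in high-load barcodes of the 2-IC libraries against 1490, 1203 and 1314 CPM in Cd79a and 1267, 1067 and 1290 CPM in retained barcodes under 10% load. Mzb1, a chaperone of antibody assembly, stood at 4200 ± 365 CPM (SD, n = 2) in high-load and 259 ± 92.7 CPM (SD, n = 3) in Cd79a barcodes under 10% load. Its counts were uneven between high-load barcodes of replicate 1. The barcode with most immunoglobulin held 39 Mzb1 UMIs among 69291 and another 294 among 31157, while the 2 Igha barcodes held 0 and 1. The list was led in retained barcodes under 10% load by secretory genes that many cells use, Ssr4 at 453 ± 130, Xbp1 at 213 ± 77.6 and Sec11c at 173 ± 72.2 CPM (SD, n = 3). Xbp1, the transcription factor gene of the secretory programme, differed by -0.13 between Cd79a and retained barcodes on the log2 scale (edgeR adjusted p = 0.428).

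Genes of immunoglobulin receptors and transport were also measured. Of 6 tested, 3 rose in Cd79a barcodes, Fcer2a (3.52 ± 0.15, edgeR adjusted p = 8.25e-11), the inhibitory IgG receptor gene Fcgr2b (1.21 ± 0.17, edgeR adjusted p = 4.25e-05) and the polymeric immunoglobulin receptor gene Pigr (4.20 ± 0.59, edgeR adjusted p = 3.38e-05). Fcgrt, the neonatal IgG receptor gene, fell (-1.09 ± 0.12, edgeR adjusted p = 2.85e-06), and it led the list in retained barcodes at 190 ± 25.8 CPM (SD, n = 3). Cr2, which B cells and FDCs both use, differed by 0.26 ± 0.19 (edgeR adjusted p = 0.265). Of all genes, 25.1% rose and 24.2% fell.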

How the data were processed

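The authors sequenced 10x Genomics 3' libraries of sorted cells and deposited raw UMI counts per gene and barcode for each library, made with Cell Ranger (5.0.0 in the file header, another version in the study's methods) on GRCm38 with an Ensembl annotation. The deposited counts were not normalized. The libraries were grouped by their titles. The genes and gene lists were chosen with earlier results of these data known. The genes named were the 9 members, other constant genes with at least 20 UMIs in retained barcodes, the 3 leading variable genes of each library, the 3 highest genes of each list and the 5 genes most like the summed members; Col6a2, Ms4a1, Pigr, Apod, the genes leading clusters or the depth count, and the variable genes of high-load barcodes were named after their values were seen. The UMI counts were summed per library and class with Python 3.11.15. Sums were tested with edgeR 4.0.16 in R 4.3.3 (TMM, filterByExpr, quasi-likelihood test, library as block, because both sums of a library come from 1 suspension), after tests on simulated data. The SE of an edgeR log2 fold change was not fitted directly. It was taken as the absolute log2 fold change divided by the square root of the F statistic of the quasi-likelihood test. Clusters were made with Seurat 5.3.0 (2000 variable genes, 10 components, resolution 0.8). No doublet caller was run. A count of 0 was taken to allow 3 UMIs. The 95% intervals are exact binomial and take in counting error alone. The alternatives covered normalization, filters, depth, library block, left-out libraries and DESeq2 1.42.0. Leaving out shared barcodes, alone or with high-load barcodes, and leaving high-load barcodes out of the clusters were chosen after seeing the data.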

Additional observations from a re-analysis of the deposited data

Results flagged for a closer look

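Barcodes that failed the gene or mitochondrial limit enter no comparison of the report. The 9 immunoglobulin genes gave 0.528% of UMIs in 657 such barcodes of 2-IC replicate 1, 0.188% in 273 of 2-IC replicate 2 and 1.58% in 43 of the 1-IC library, above the retained share of each library (0.115%, 0.0595% and 0.0090%), which is what flagged them. In the 1-IC library 458 and 111 of the 592 immunoglobulin UMIs lay in 2 barcodes with 15.2% and 14% mitochondrial UMIs, of Ighg2c with Igkc and of Ighg2b with Igkc.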

How the results depend on the processing

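In the Cd79a comparison, 108 of 110 values of the 8 genes other than Igha kept their direction and their side of the threshold. The exceptions were Ighg2c with 0.74 (edgeR adjusted p = 0.180) without high-load barcodes and 0.28 (edgeR adjusted p = 0.565) without shared and high-load barcodes. Igha was 4.59 by DESeq2 (adjusted p = 0.211) and 3.18 without shared and high-load barcodes, lost its call with all barcodes without Cd79a as reference (-1.81, edgeR adjusted p = 0.164), and had no value without 2-IC replicate 1, thinned or without high-load barcodes alone. Of all genes, 6235 were called; 4081 by DESeq2 (1770 lower) and 2365 of 4793 tested (1197 higher and 1168 lower) thinned to 1000 UMIs. Leaving out 1 library gave 3445 to 6470 calls, 1790 to 3231 higher and 1655 to 3239 lower, the lowest without 2-IC replicate 1. Without the library as a block 2858 genes were called (1611 higher and 1247 lower), the 8 genes kept their call and Igha lost it (-2.27, edgeR adjusted p = 0.244).

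Leaving out 1 library moved the count of genes over-represented in shallow barcodes from 43 to 78 to 182 (140 without 2-IC replicate 1, 78 without 2-IC replicate 2 and 182 without the 1-IC library), and allowing other contaminant genes to 119. The ratio of the shallowest to the deepest share in 2-IC replicate 1 was 8.77 with 4 depth classes, 5.85 by all UMIs, 3.20 without high-load, 4.14 without shared and 3.17 without both kinds of barcodes. In 2-IC replicate 2 it was 12.4 with 4 depth classes, 5.40 with other contaminant genes allowed, 2.36 without high-load, 2.45 without shared and 2.45 without both, and in the 1-IC library 1.10 with other contaminant genes allowed. The library shares were 1.08%, 1.38% and 0.301% with no filter on contaminant genes, 0.0436%, 0.0280% and 0% as medians over barcodes, 0.183%, 0.260% and 0.0111% thinned, 0.0601% and 0.0392% in the 2-IC libraries without high-load and 0.0925% and 0.0404% without shared barcodes. Igkc made up 65.9% and 46.3% of the UMIs of the 9 genes in the 2-IC libraries without high-load and 65.5% and 46.3% without shared barcodes. The share of retained barcodes with an immunoglobulin UMI, thinned to 500 UMIs, was 27.9% and 23.3% in the 2-IC libraries. The causes were not tested. With 3 libraries, 1 of them 1-IC, and 70 heavy chain UMIs in its retained barcodes, the 1-IC make-up is the least precise.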
